A study of Mus musculus with 6 samples.

Results

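The genes described here are 39 members of the pathway that carries glucose from the islet cell surface to the mitochondrial tricarboxylic acid (TCA) cycle. They were taken by symbol from the 40840 gene rows of a read count table and cover glucose transporters, glucose phosphatases, glycolytic enzymes, the enzymes that pass pyruvate into mitochondria, TCA cycle enzymes and shuttle enzymes. All 39 symbols were present. The table came from RNA sequencing of mouse pancreatic islets, with 3 libraries labelled wild-type (WT) and 3 labelled knockout (KO), both on the C57BL/6J background. The series is titled for the role in beta cells of IGF2R, a receptor for mannose phosphate-tagged lysosomal enzymes and insulin-like growth factor. The sources used here give no age, sex or treatment, and do not say how or in which cells the gene was removed. Whether each library is a separate animal is not said either, and the p-values speak only of variation among 6 libraries, part of which may be technical.

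Islet beta cells use glucose metabolism itself as their glucose sensor. Glucose enters through facilitative transporters, is split to pyruvate by glycolysis, and is oxidised in mitochondria, and the resulting ATP closes potassium channels and starts insulin release. Beta cells are known for a large flow of pyruvate into mitochondria through pyruvate carboxylase as well as pyruvate dehydrogenase, and for shuttles that carry cytosolic reducing equivalents into mitochondria.

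Library totals ranged from 16689319 to 18956235 counts, so that 1 CPM (a count taken relative to the TMM-scaled library total) stood for 16.8 to 18.8 counts. Igf2r, the check of the labels, stood at 95, 128 and 115 CPM in WT libraries 1 to 3 and 49.3, 48.1 and 48.4 CPM in KO libraries 1 to 3, and fell by 1.21 on the log2 scale (standard error 0.0946, adjusted p 0.00261 by edgeR). That call was lost without KO library 1 (adjusted p 0.13) or KO library 2 (0.192), and with the acinar level as a covariate (0.298). The log2 fold change hardly moved there, at -1.22, -1.20 and -1.25 in that order. DESeq2 and limma-voom also called Igf2r on all 6 libraries (adjusted p 3.05e-35 and 0.000152). The summed level of 8 beta cell markers was 129868 to 149279 CPM in WT and 142078 to 162957 CPM in KO, and that of 8 alpha cell markers 28178 to 36459.9 and 30515 to 34050.3 CPM. The libraries stood apart in 20 acinar (digestive enzyme) genes, which summed to 16528 and 17909.6 CPM in WT libraries 1 and 2, 2850.0 CPM in WT library 3 and 877 to 2577 CPM in KO. The 8 macrophage markers summed to 332 to 385 CPM in WT and 399 to 423 CPM in KO. Summed levels of the duct, endothelial and stromal markers overlapped between the groups. In whole islets, fewer cells of a type and less RNA per cell cannot be told apart.

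None of the 39 glucose metabolism genes passed the test between KO and WT islets. In the fit of all 6 libraries without a covariate, the 95% interval of each gene lay inside a 1.5-fold change. All 39 members passed the low-count filter, with 169 to 24675 counts per gene and library. edgeR's quasi-likelihood test, adjusted by Benjamini-Hochberg over 16240 genes at a threshold of 0.05, called 0 of 39, against 0.0123% of all genes tested. The adjusted p of the members ranged from 0.37 to 0.997. limma-voom also called 0 of 39 and DESeq2 0 of the 29 to which it gave an adjusted p, against 0.00616% and 1.02% of the genes so tested. At an unadjusted p under 0.05, 3 members were higher in KO and 0 lower, 7.69% of the members against 11% of all genes, of which 5.19% were higher and 5.8% lower. With the column number as a replicate block, edgeR called 30 genes over the whole table (0.185%) and again 0 of the 39 members, and 6 members (15.4%) then had an unadjusted p under 0.05, against 14.6% of all genes under the same block. No member was called in any of the 16 alternative settings, in which the share of all genes called was 0.0185% without scaling factors, 0.0133% with a stricter low-count filter, 1.02% with none and 0.0177% against WT library 3 alone. On leaving out single libraries the share was 0.00611%, 0.0181% and 0.691% without WT libraries 1, 2 and 3, 0% without KO library 1 or 2 and 0.145% without KO library 3.

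The size of any difference was therefore read from the intervals of the fit. The 95% intervals of all 39 log2 fold changes, each taken on its own, lay between -0.37 and 0.46, inside a 1.5-fold change in either direction. For 35 members the interval lay inside a 25% increase and a decrease of equal size on the log2 scale, a share of 89.7% against 54.1% of all genes tested, whose median SE was 0.0946 against 0.0605 for the members. The exceptions were Slc2a1, Slc2a2, Pgk1 and Gpd2. These bounds were wider with the acinar level as a covariate, where the median SE of the members was 0.107, the intervals reached -0.66 and 0.64, and 36 members stayed inside 1.5-fold (all but Slc2a1, Pgk1 and Gpd2) and 19 inside the 25% band. On leaving out single libraries Slc2a2 passed the 1.5-fold limit without WT library 1 or KO library 3, and the other 38 members did not. The point values were less stable: for 33 of 39 members leaving out 1 library moved the log2 fold change by over 1.5 times or past 0, the exceptions being G6pc2, Gpi1, Aldoa, Eno2, Mdh2 and Me1. Log2 fold changes were positive for 23 members and negative for 16, with 0.029 as their median and -0.036 to 0.10 as their interquartile range, while 50% of all genes had positive values and their median was 5.3e-05. The 3 KO libraries lay all above the 3 WT libraries for 4 members (G6pc2, Aldoa, Gapdh and Me1) and all below them for 1 member (Pdha1), against 8.02% and 7.69% of all genes tested. Together the members took 0.537 ± 0.0171% of WT counts and 0.561 ± 0.0113% of KO counts (mean ± SD of 3 libraries), and these unscaled shares of single libraries overlapped. Their summed CPM, which is TMM-scaled, did not overlap. It was 5387, 5229 and 5508 in WT libraries 1 to 3 and 5713, 5564 and 5569 in KO libraries 1 to 3. The difference of the sums was not tested.

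**Figure D1:**
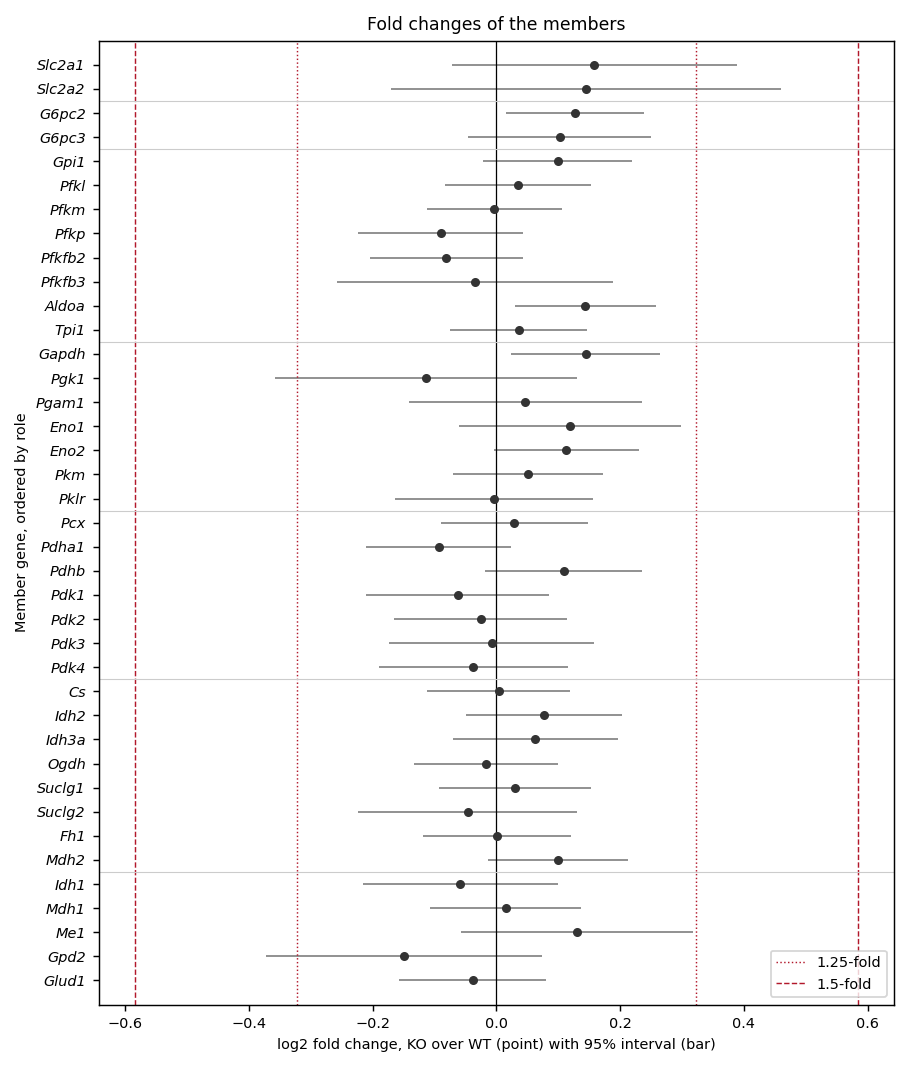
Log2 fold changes of the 39 members between KO and WT islets (horizontal axis; points, with bars for the 95% interval of edgeR's quasi-likelihood fit), in rows grouped by role. Every bar stays inside the dashed lines of a 1.5-fold change, and those of Slc2a1, Slc2a2, Pgk1 and Gpd2 cross the dotted lines of a 25% increase or the equal decrease on the log2 scale.

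The 3 members with an unadjusted p under 0.05 were G6pc2, Aldoa and Gapdh, and the 250 bases before a RefSeq transcription start of each (GRCm38.p6) are shown to give their sequence context. Capitals mark any of 5 short motifs searched on both strands. They were the E-box core CACGTG, the GC box GGGCGG, the TATA box TATAAA, the forkhead core TGTTTAC and GACGTG, labelled a hypoxia response core. None of these motifs contains another, though CACGTG and GACGTG share the letters ACGTG. The Aldoa window (chr7:126799179-126799428, minus strand) held GGGCGG in 3 places and GACGTG, read on the other strand, in 1. The windows of G6pc2 (chr2:69210823-69211072, plus strand) and Gapdh (chr6:125165774-125166023, minus strand) held none of these letters.
G6pc2: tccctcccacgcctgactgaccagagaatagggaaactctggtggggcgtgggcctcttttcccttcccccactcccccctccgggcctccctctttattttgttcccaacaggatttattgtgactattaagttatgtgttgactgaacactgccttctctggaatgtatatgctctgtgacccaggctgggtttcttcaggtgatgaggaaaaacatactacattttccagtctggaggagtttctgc
Aldoa: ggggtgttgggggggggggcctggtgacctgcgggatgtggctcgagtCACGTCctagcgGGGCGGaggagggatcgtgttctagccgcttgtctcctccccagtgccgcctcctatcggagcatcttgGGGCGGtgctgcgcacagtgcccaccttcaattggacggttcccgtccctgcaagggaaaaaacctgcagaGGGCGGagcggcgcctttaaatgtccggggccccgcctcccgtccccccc
Gapdh: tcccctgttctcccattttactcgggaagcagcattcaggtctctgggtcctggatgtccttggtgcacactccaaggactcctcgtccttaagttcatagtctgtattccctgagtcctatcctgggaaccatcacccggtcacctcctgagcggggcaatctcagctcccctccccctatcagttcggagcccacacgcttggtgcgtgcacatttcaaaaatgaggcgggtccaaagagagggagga
Aldoa has 2 other annotated starts and G6pc2 1 other, which are not printed. The printed Aldoa window held more matches than either of its others. That at chr7:126799255-126799504 also held GGGCGG and GACGTG, and that at chr7:126800448-126800697 held none of the motifs. The other G6pc2 window held none.

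RefSeq windows were matched for 38 of the 39 members, 62 windows in all. GACGTG was in 14 of the 62 windows (22.6%), against 5.2% of all 32851 windows of the same length. The 14 belonged to 11 genes, Aldoa, Gpd2, Mdh1, Me1, Ogdh, Pcx, Pdhb, Pfkfb3, Pgk1, Pkm and Slc2a1. CACGTG was in 9 member windows (14.5%, 7 genes) and in 6.02% of all windows. GGGCGG was in 48.4% and 32.7%, and TATAAA in 3.23% and 12.4%. TGTTTAC was in 0 member windows and in 3.17% of all. Windows of one gene can overlap, as for Aldoa and Ogdh, where overlapping windows counted the same match again. The shares were not matched for base composition, and a match is a description of letters, not of binding.

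Several members share long stretches with processed copies elsewhere in the genome, which limits what their counts mean. The longest coding transcript of each member in GENCODE M21 (GRCm38) was cut into overlapping windows of 50 bases, and each window was looked up in the transcripts of all genes at other places. For Gapdh, 82.5% of windows occurred elsewhere, in 215 pseudogene entries among others. The share was 72.2% for Eno1, 68% for Pgk1, 41.5% for Pgam1, 32.8% for Me1, 30.5% for Pkm, 30.3% for Pdhb, 21.8% for Suclg2, 19.6% for Gpi1 and 13.5% for Aldoa. It was 0 for 21 members, among them Slc2a1, Slc2a2, G6pc2, Pfkm, Pcx, Ogdh, Mdh2 and Gpd2. With windows of 100 bases the share of Gapdh was 78% and that of Pkm 6.82%.

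The coding window of Gapdh held by the most other genes, coding bases 415 to 464, occurred letter for letter in 84 of them. For Pkm and Gpi1 a stretch of 60 coding bases is set beside the copy that shares most windows with it, the pseudogenes Gm6560 on chromosome 5 and Gm1840 on chromosome 8, with the single differing base in capitals. Each stretch was picked for holding exactly 1 difference and does not describe the whole copy. Of windows of 100 bases, 6.82% of Pkm and 4.92% of Gpi1 occurred elsewhere.
Gapdh: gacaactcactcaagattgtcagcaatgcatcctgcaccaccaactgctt
Pkm: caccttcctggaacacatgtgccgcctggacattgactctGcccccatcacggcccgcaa
Gm6560: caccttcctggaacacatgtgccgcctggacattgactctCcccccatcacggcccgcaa
Gpi1: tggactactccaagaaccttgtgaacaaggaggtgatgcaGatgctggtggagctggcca
Gm1840: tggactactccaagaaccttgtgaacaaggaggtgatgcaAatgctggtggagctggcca
How the counting step treated reads with more than 1 matching place is not stated in the labels. In the same count table, 10 rows of Gapdh copies held 342, 329 and 395 counts in WT libraries 1 to 3. They held 413, 435 and 379 counts in KO libraries 1 to 3, in total 27.7% of the counts of Gapdh. Eno1, Pdha1 and Cs had 1 copy row each, with at most 3 counts in a library, and the other members had no such row. Copy rows were those of pseudogenes and of genes above a cut on the number of shared 50-base windows. Aldoart1, a protein-coding gene sharing 94 windows with Aldoa, fell below the cut and was not counted. The levels of Gapdh, Eno1, Pgk1 and Pgam1 in particular are uncertain, and comparisons of one such gene between libraries share the same limit in every library. Exons of other genes also overlap 12 members, by 748 bases of an opposite-strand gene for Pfkp, 711 for Pklr and 603 for Pdha1, and by 1241 and 334 bases of a same-strand gene for Pfkfb2 and Pkm. For Aldoa and Me1 the overlap was 25 and 30 bases. Whether strand was used in counting is not stated, so reads there cannot be assigned with certainty.

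**Figure D2:**
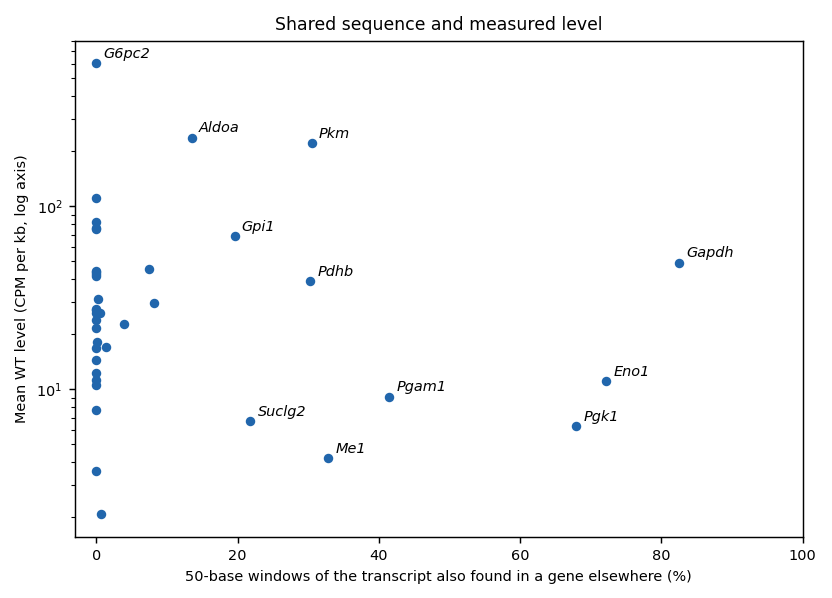
Share of 50-base transcript windows that also occur in a gene elsewhere (horizontal axis, %) against the mean WT level of each member (vertical axis, CPM per kb of coding-transcript exon, log scale), 1 point per gene. G6pc2, with no shared window, stood at 604 CPM per kb, and Gapdh, with 82.5%, at 49.1 CPM per kb.

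Per length, G6pc2 was the highest of the 39 genes in WT islets, at 604 CPM per kb of exon. Aldoa (237 CPM per kb), Pkm (220.1), Idh2 (111), Mdh2 (81.6), Slc2a2 (76.1) and Ogdh (75.2) came next. The lowest were Pfkfb3 (2.08 CPM per kb), Slc2a1 (3.56), Me1 (4.21), Pgk1 (6.27) and Suclg2 (6.71). Gapdh, one of the most abundant transcripts in many tissues, was at 49.1 CPM per kb. These levels are means of 3 WT libraries, and the within-group coefficient of variation of the members' CPM had a median of 4.33% in WT and 4.4% in KO.

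**Figure D3:**
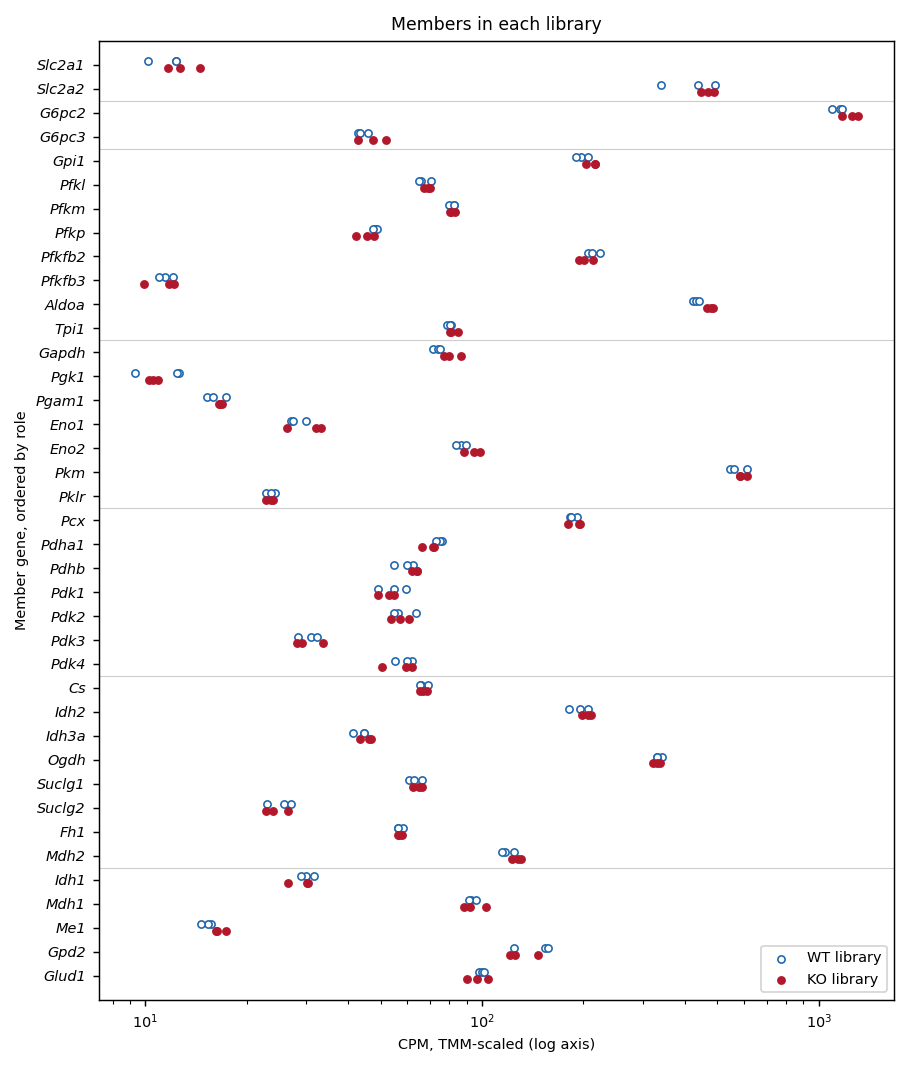
CPM of each member (horizontal log axis) in the 3 WT libraries (open circles) and the 3 KO libraries (filled circles), in rows grouped by role. The members spanned 11 to 1195 mean CPM, and circles of the 2 groups lie apart for G6pc2, Aldoa, Gapdh, Me1 and Pdha1.

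Of the glucose transporters, Slc2a2 encodes GLUT2, the main transporter of mouse beta cells, and Slc2a1 encodes GLUT1, which is widespread in other cells. Slc2a2 (chr3:28697903-28731359, plus strand) stood at 439, 340.3 and 492 CPM in WT libraries 1 to 3 and 489, 469 and 447 CPM in KO libraries 1 to 3. WT library 2 was the lowest of the 6, the other 5 lay close together, and the groups overlapped. Its log2 fold change was 0.15 (SE 0.131, 95% interval -0.17 to 0.46, edgeR adjusted p 0.728), the widest interval of all members. Without WT library 2 the log2 fold change was 0.010, and against WT library 3 alone it was -0.072. Slc2a1 stood at 10.2, 12.3 and 12.3 CPM in WT libraries 1 to 3 and 12.6, 14.5 and 11.7 CPM in KO libraries 1 to 3, with overlapping groups. For Slc2a1 the log2 fold change was 0.16 (SE 0.111, 95% interval -0.072 to 0.39, edgeR adjusted p 0.618), and it was 0.071 without WT library 1 or without KO library 2. The count ratio of Slc2a1 to Slc2a2 was 0.0232, 0.0362 and 0.0251 for WT libraries 1 to 3, against 0.0259, 0.0309 and 0.0262 for KO, and per length Slc2a1 was at 0.0481 of Slc2a2 in WT and 0.0472 in KO.

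The glucose phosphatases reverse glucose phosphorylation. G6pc2 encodes the islet-specific catalytic subunit, whose loss lowers fasting blood glucose in mice, and G6pc3 the widespread one. G6pc2 (chr2:69211073-69227841, plus strand) stood at 1096, 1159 and 1172 CPM in WT libraries 1 to 3 and 1310.4, 1255 and 1176 CPM in KO libraries 1 to 3. All KO values were above all WT values, but KO library 3 exceeded WT library 3 only narrowly. The G6pc2 log2 fold change was 0.13 (SE 0.0537, 95% interval 0.015 to 0.24, edgeR adjusted p 0.407). The log2 fold change was 0.088 against WT library 3 alone, the WT library closest to KO in acinar genes, and 0.097 with the acinar level as a covariate. G6pc3 stood at 42.9, 45.9 and 43.3 CPM in WT libraries 1 to 3 and 42.7, 51.9 and 47.3 CPM in KO libraries 1 to 3, with KO library 2 highest and overlapping groups. For G6pc3 the log2 fold change was 0.10 (SE 0.0711, 95% interval -0.046 to 0.25, edgeR adjusted p 0.616), which became 0.032 without KO library 2 and 0.17 without KO library 1.

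In upper glycolysis, which turns glucose phosphate into triose phosphates, 4 of 8 genes had positive and 4 negative log2 fold changes, and the median was 0.016. Aldoa (chr7:126795234-126800751, minus strand), the aldolase that splits the bisphosphate sugar, stood at 425, 431 and 439.8 CPM in WT libraries 1 to 3 and 467, 479 and 485 CPM in KO libraries 1 to 3. Every KO library was above every WT library. The Aldoa log2 fold change was 0.14 (SE 0.0548, 95% interval 0.030 to 0.26, edgeR adjusted p 0.37), the smallest adjusted p of the 39 members. Against WT library 3 alone the log2 fold change of Aldoa was 0.12. Pfkfb2, a bifunctional enzyme that sets the level of an activator of phosphofructokinase, stood at 225, 206 and 212 CPM in WT libraries 1 to 3 and 213, 201 and 194 CPM in KO libraries 1 to 3. The groups overlapped, and its log2 fold change was -0.081 (SE 0.0596, 95% interval -0.20 to 0.043, edgeR adjusted p 0.639). Gpi1, glucose phosphate isomerase, had a log2 fold change of 0.099 from 198 ± 7.99 and 212 ± 7.34 CPM (mean ± SD in WT and KO, n = 3 each). Tpi1, triose phosphate isomerase, was at 0.036 and Pfkfb3 at -0.034, the latter with at most 12.1 CPM in any library.

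The 3 phosphofructokinase subunits, which form the committed step of glycolysis, were all present. Pfkm, the muscle-type subunit, stood at 82.5, 79.9 and 82.6 CPM in WT libraries 1 to 3 and 83.1, 80.5 and 80.8 CPM in KO libraries 1 to 3, within 1.04-fold over the 6 libraries. Pfkl, the liver-type subunit, stood at 66.1, 65 and 70.6 CPM in WT libraries 1 to 3 and 69.3, 67.1 and 70.2 CPM in KO libraries 1 to 3. Pfkp, the platelet-type subunit, stood at 48.1, 48.6 and 47.4 CPM in WT libraries 1 to 3 and 45.6, 42.1 and 47.6 CPM in KO libraries 1 to 3. Groups overlapped for each of them, and their log2 fold changes were -0.0036, 0.035 and -0.090 in that order. Per length the WT levels were 27.2 CPM per kb for Pfkm, 18 for Pfkl and 11.2 for Pfkp. The count ratio of Pfkl to Pfkm was 0.801, 0.814 and 0.855 for WT libraries 1 to 3, against 0.834, 0.834 and 0.87 for KO. That of Pfkp to Pfkm was 0.583, 0.609 and 0.573 for WT libraries 1 to 3, against 0.549, 0.523 and 0.59 for KO, lower in KO libraries 1 and 2 than in any WT library and overlapping WT in KO library 3.

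In lower glycolysis, which ends in pyruvate, 5 of 7 genes had positive and 2 negative log2 fold changes, and the median was 0.051. Gapdh (chr6:125161715-125166467, minus strand), the triose phosphate dehydrogenase, stood at 71.4, 74 and 74.9 CPM in WT libraries 1 to 3 and 77, 79.8 and 86.8 CPM in KO libraries 1 to 3. KO was above WT in all libraries, with KO library 3 the highest. Its log2 fold change was 0.14 (SE 0.0577, 95% interval 0.024 to 0.26, edgeR adjusted p 0.389), and it was 0.094 without KO library 3. Eno2, the neuronal and endocrine enolase, stood at 86.9, 83.5 and 89.7 CPM in WT libraries 1 to 3 and 88.4, 94.4 and 98.5 CPM in KO libraries 1 to 3. The groups overlapped between WT library 3 and KO library 1, and its log2 fold change was 0.11 (SE 0.0562, 95% interval -0.0040 to 0.23, edgeR adjusted p 0.47). Eno1, the widespread enolase, stood at 27, 27.5 and 30 CPM in WT libraries 1 to 3 and 32.2, 26.3 and 33.3 CPM in KO libraries 1 to 3, with KO library 2 below all WT libraries and KO libraries 1 and 3 above them.

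Pkm, the pyruvate kinase gene of most tissues, stood at 611, 544 and 561 CPM in WT libraries 1 to 3 and 613, 582 and 584 CPM in KO libraries 1 to 3. The groups overlapped, and its log2 fold change was 0.051 (SE 0.058, 95% interval -0.069 to 0.17, edgeR adjusted p 0.777). Pklr, the liver and red cell pyruvate kinase gene, stood at 24.2, 22.9 and 23.5 CPM in WT libraries 1 to 3 and 24, 23.6 and 22.8 CPM in KO libraries 1 to 3, within 1.06-fold over the 6 libraries, and its log2 fold change was -0.0039. The count ratio of Pklr to Pkm was 0.0396, 0.042 and 0.042 for WT libraries 1 to 3, against 0.0391, 0.0406 and 0.0391 for KO. Pgk1, phosphoglycerate kinase, had a log2 fold change of -0.11, with WT library 3 at 9.3 CPM against 12.6 and 12.4 CPM in WT libraries 1 and 2. Pgam1, phosphoglycerate mutase, was at 0.047.

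**Figure D4:**
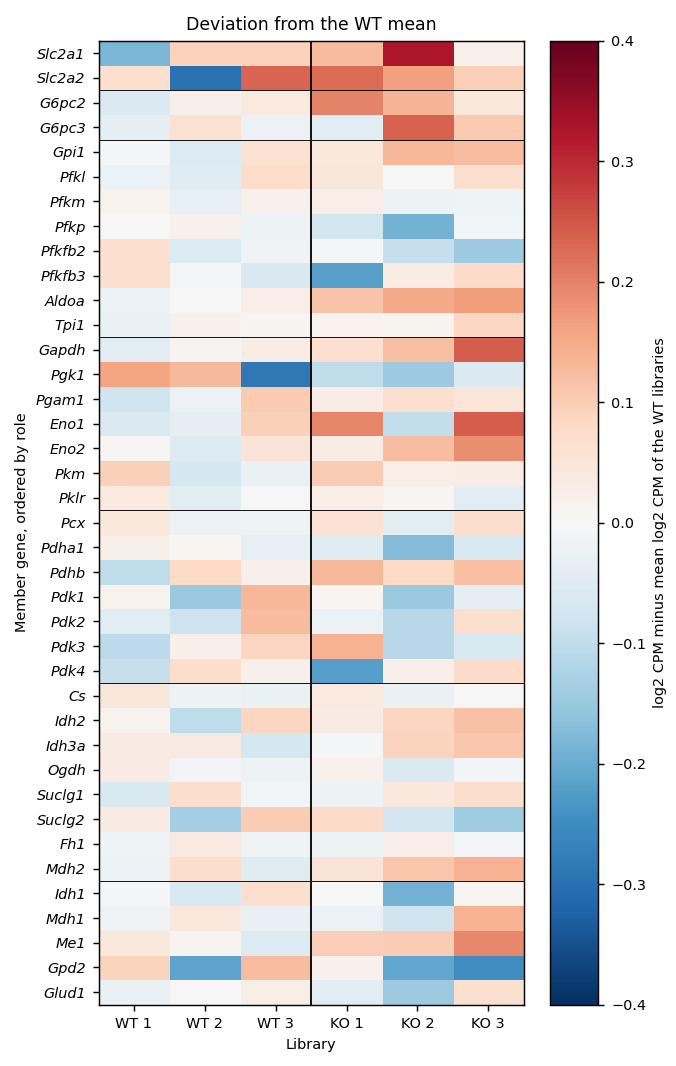
Log2 CPM of each member in each library minus its mean over the 3 WT libraries (colour), with libraries in columns and members in rows grouped by role. The deepest blue cells in WT are Slc2a2 in library 2 and Pgk1 in library 3, and the KO cells of Aldoa and Gapdh are red in all 3 libraries.

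At the entry of pyruvate into mitochondria, 2 of 7 genes had positive and 5 negative log2 fold changes. Pcx, pyruvate carboxylase, which makes oxaloacetate from pyruvate, stood at 191, 183 and 183 CPM in WT libraries 1 to 3 and 193, 180.1 and 195 CPM in KO libraries 1 to 3. Its groups overlapped, and its log2 fold change was 0.029 (SE 0.0572, 95% interval -0.090 to 0.15, edgeR adjusted p 0.889). Pdha1 (chrX:160122209-160138413, minus strand), the catalytic alpha subunit of pyruvate dehydrogenase, stood at 75.8, 75.1 and 73 CPM in WT libraries 1 to 3 and 72.2, 66.2 and 71.4 CPM in KO libraries 1 to 3. All KO values were below all WT values, and its log2 fold change was -0.094 (SE 0.0562, 95% interval -0.21 to 0.023, edgeR adjusted p 0.557). Without KO library 2 that value was -0.055. Pdhb, the beta subunit of the same enzyme, had a value in the other direction, at 58.9 ± 3.78 and 63.4 ± 1.18 CPM (mean ± SD in WT and KO, n = 3 each; log2 fold change 0.11).

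The count ratio of Pcx to Pdha1 sets pyruvate carboxylase beside 1 subunit of pyruvate dehydrogenase, not the whole enzyme. Log2 fold changes of the other subunits were 0.11 (Pdhb), 0.0031 (Dlat), -0.10 (Dld) and -0.048 (Pdhx), and ratios to them were not computed. The Pcx to Pdha1 ratio was 2.52, 2.43 and 2.51 for WT libraries 1 to 3, against 2.68, 2.72 and 2.73 for KO. It was higher in every KO library than in any WT library, with means of 2.49 ± 0.048 and 2.71 ± 0.028 (SD, n = 3). The exact two-sided permutation p was 0.1, the smallest that 3 against 3 libraries allow, and 0.667 after Benjamini-Hochberg adjustment over the 10 ratios computed. It was the only one of the 10 ratios whose groups did not overlap. The other 9 had exact permutation p-values of 0.20 to 1, and differences of mean log2 ratio of -0.088 to 0.039 between KO and WT. Over the leave-outs of single libraries the log2 difference of the Pcx to Pdha1 ratio ranged from 0.11 to 0.13.

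**Figure D5:**
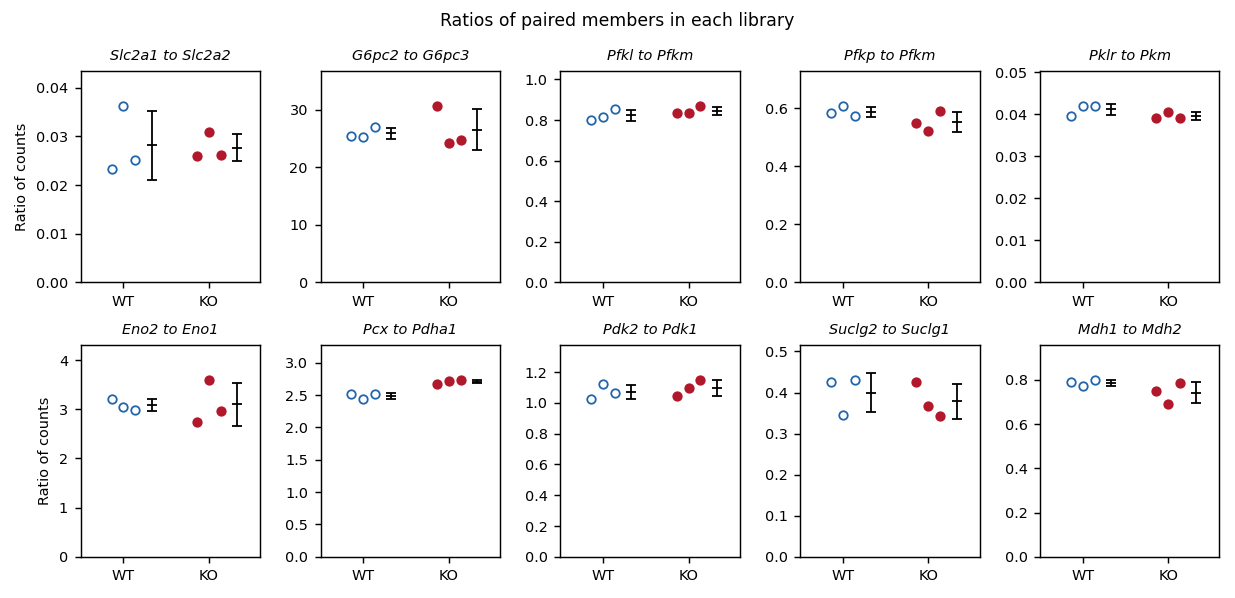
Ratios of counts of 10 pairs of members (vertical axes, starting at 0) in the WT (open circles) and KO libraries (filled circles), with the mean and SD of each group beside them. The ratio of Pcx to Pdha1 lies between 2.43 and 2.52 in WT and between 2.68 and 2.73 in KO, and the groups overlap in the other 9 panels.

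The 4 pyruvate dehydrogenase kinases switch that enzyme off by phosphorylation. Pdk1 stood at 54.9, 49 and 59.6 CPM in WT libraries 1 to 3 and 54.6, 49.1 and 53 CPM in KO libraries 1 to 3. Pdk2 stood at 56.4, 54.9 and 63.5 CPM in WT libraries 1 to 3 and 57.2, 53.8 and 60.8 CPM in KO libraries 1 to 3. Both varied as much within WT as between the groups, and their log2 fold changes were -0.063 and -0.026. Per length, Pdk2 was the highest of the 4 in WT at 25.9 CPM per kb, followed by Pdk4 (16.9), Pdk3 (14.5) and Pdk1 (10.5). Pdk4, the kinase induced by fasting in muscle, had a log2 fold change of -0.038 and Pdk3 of -0.0079.

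Of the 8 TCA cycle genes, 6 had positive and 2 negative log2 fold changes, from -0.047 to 0.10, and the WT and KO libraries overlapped for all 8. Ogdh, the oxoglutarate dehydrogenase gene, stood at 342, 332 and 329.8 CPM in WT libraries 1 to 3 and 338, 322 and 332 CPM in KO libraries 1 to 3. It varied by 1.06-fold over the 6 libraries, and its log2 fold change was -0.017 (SE 0.0559, 95% interval -0.13 to 0.10, edgeR adjusted p 0.937). Idh2, the mitochondrial isocitrate dehydrogenase that uses NADP, stood at 196, 181 and 206 CPM in WT libraries 1 to 3 and 199, 206 and 210.3 CPM in KO libraries 1 to 3. WT library 2 was the lowest, and its log2 fold change was 0.077 (SE 0.0605, 95% interval -0.049 to 0.20, edgeR adjusted p 0.662). Cs, citrate synthase, was at 66.8 ± 1.85 and 67 ± 1.57 CPM and Fh1, fumarase, at 57 ± 1.26 and 57 ± 0.901 CPM (mean ± SD in WT and KO, n = 3 each). Their log2 fold changes were 0.0034 and 0.00030. Idh3a, the catalytic subunit of the isocitrate dehydrogenase that uses NAD, had a value of 0.063.

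Suclg1, the alpha subunit shared by the succinyl-CoA ligases, stood at 60.7, 66.5 and 62.8 CPM in WT libraries 1 to 3 and 62.3, 65.1 and 66.5 CPM in KO libraries 1 to 3, and its log2 fold change was 0.030. Suclg2, the beta subunit that uses GTP, stood at 25.8, 22.9 and 27 CPM in WT libraries 1 to 3 and 26.6, 23.9 and 22.8 CPM in KO libraries 1 to 3, with a log2 fold change of -0.047. Mdh2, the mitochondrial malate dehydrogenase, stood at 117, 125 and 115 CPM in WT libraries 1 to 3 and 123, 128 and 131 CPM in KO libraries 1 to 3. WT library 2 lay within the KO range, and its log2 fold change was 0.10 (SE 0.0543, 95% interval -0.013 to 0.21, edgeR adjusted p 0.508). Mdh1, its cytosolic partner in the malate-aspartate shuttle, stood at 92.6, 96.3 and 91.6 CPM in WT libraries 1 to 3 and 92, 88.5 and 103 CPM in KO libraries 1 to 3, with a log2 fold change of 0.015.

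Of the other shuttle and side-entry genes, Gpd2, the mitochondrial dehydrogenase of the glycerol phosphate shuttle, stood at 154, 125 and 157 CPM in WT libraries 1 to 3 and 146, 125 and 121 CPM in KO libraries 1 to 3. WT library 2 and KO libraries 2 and 3 were low, WT libraries 1 and 3 and KO library 1 were higher, and the groups overlapped. For Gpd2 the log2 fold change was -0.15 (SE 0.0988, 95% interval -0.37 to 0.074, edgeR adjusted p 0.615), with -0.25 without WT library 2, -0.24 without KO library 1 and -0.086 without WT library 3. Glud1, glutamate dehydrogenase, which feeds the cycle from glutamate, stood at 98, 99.8 and 101 CPM in WT libraries 1 to 3 and 96.9, 90.1 and 104 CPM in KO libraries 1 to 3. The KO libraries spanned the whole WT range, and its log2 fold change was -0.038 (SE 0.057, 95% interval -0.16 to 0.080, edgeR adjusted p 0.841). Me1, the cytosolic malic enzyme, stood at 15.7, 15.3 and 14.6 CPM in WT libraries 1 to 3 and 16.3, 16.3 and 17.4 CPM in KO libraries 1 to 3, higher in every KO library, and its log2 fold change was 0.13 (SE 0.0903, 95% interval -0.058 to 0.32, edgeR adjusted p 0.614). Idh1, the cytosolic isocitrate dehydrogenase, had a log2 fold change of -0.058.

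A further 48 genes of the same pathways were taken as a list, and 46 were tested. edgeR called 0 of them, with adjusted p from 0.295 to 0.99, against 0.0123% of all genes tested. DESeq2 and limma-voom also called 0, against 1.02% and 0.00616% of the genes to which they gave an adjusted p. How many of the list had an adjusted p from DESeq2 was not counted. At an unadjusted p under 0.05, 4 were higher and 3 lower in KO, 15.2% of the list against 11% of all genes. Those 7 became 0 with the acinar covariate, 1 without KO library 2 and 1 against WT library 3 alone, where 2.68%, 5.55% and 2.90% of all genes passed the same level. Over the list, 27 genes had positive and 19 negative values, the median log2 fold change being 0.017. The lowest value was -0.56, for Slc16a1 (95% interval -1.12 to -0.0030), which had only 17 to 30 counts in a library and was among the 3 lower genes. Intervals of 43 genes of the list lay inside a 1.5-fold change, 93.5% against 77.2% of all genes tested. The 2 genes of the list with the highest CPM were Mlxipl, the glucose-responsive transcription factor ChREBP, and Acly, ATP citrate lyase. Mlxipl stood at 1691, 1693 and 1682 CPM in WT libraries 1 to 3 and 1720.3, 1751 and 1665 CPM in KO libraries 1 to 3, a log2 fold change of 0.020 with a 95% interval of -0.077 to 0.12. Acly stood at 1551, 1552 and 1463 CPM in WT libraries 1 to 3 and 1461, 1307 and 1382 CPM in KO libraries 1 to 3. KO library 1 was just below WT library 3, KO library 2 was the lowest, and its log2 fold change was -0.14 (SE 0.0525, 95% interval -0.25 to -0.028, edgeR adjusted p 0.371).

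The other 5 of the 6 genes with the smallest p in that list were Pck2, Slc25a1, Aldoc, Gpd1 and Got1. Pck2, the mitochondrial phosphoenolpyruvate carboxykinase, stood at 114, 112 and 122 CPM in WT libraries 1 to 3 and 129, 142 and 125 CPM in KO libraries 1 to 3. All KO values were above WT, and its log2 fold change was 0.18 (SE 0.0586, 95% interval 0.061 to 0.30, edgeR adjusted p 0.295). Slc25a1, the mitochondrial citrate carrier, stood at 114, 114 and 114 CPM in WT libraries 1 to 3 and 119.8, 131 and 127 CPM in KO libraries 1 to 3, and its log2 fold change was 0.14 (SE 0.0529, 95% interval 0.030 to 0.25, edgeR adjusted p 0.368). Aldoc, the brain-type aldolase, stood at 17.6, 17.2 and 21.5 CPM in WT libraries 1 to 3 and 21.1, 23.0 and 22.3 CPM in KO libraries 1 to 3, a log2 fold change of 0.23 in which WT library 3 lay within the KO range. Got1, the cytosolic aspartate aminotransferase, stood at 26.3, 22.2 and 23.8 CPM in WT libraries 1 to 3 and 29.5, 26.7 and 26.8 CPM in KO libraries 1 to 3, higher in every KO library, with a log2 fold change of 0.20. Gpd1, the cytosolic partner of Gpd2, stood at 43.8, 55.8 and 46.8 CPM in WT libraries 1 to 3 and 42.6, 40.4 and 44.4 CPM in KO libraries 1 to 3. WT library 2 was the highest of the 6, the groups overlapped, and the log2 fold change of -0.20 was -0.093 without WT library 2. Against WT library 3 alone the log2 fold changes were 0.11 for Pck2, 0.14 for Slc25a1, -0.082 for Acly, 0.036 for Aldoc, 0.22 for Got1 and -0.14 for Gpd1. Acinar and macrophage marker levels differed between the groups, as given above, with WT library 3 near KO in acinar genes. The acinar level was fitted as a covariate, with results given above, and the macrophage level was not. The part of either in any of these differences was not tested.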

How the data were processed

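Islet RNA was measured in 3 WT and 3 KO libraries, each made from 500 ng of total RNA with a strand-specific kit, per the labels' protocols. Trimmomatic 0.39, STAR 2.7.10b, featureCounts 2.0.3 and the build mm10 are named in the submitters' processing notes. For the annotation, the strand setting and reads with several matches, the sources used here give nothing. The authors deposited raw counts per gene, with 40840 rows and 1 column per library. Titles number KO samples from 4 to 6 and columns from 1 to 3, so KO columns carry the group only, and library numbers are column numbers.

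With edgeR 4.0.16, filterByExpr (counts of at least 10, total of at least 15) kept 16240 genes, and TMM factors scaled the libraries. The genotype term was fitted by glmQLFit with robust estimation and tested by glmQLFTest (two-sided). P-values were adjusted by Benjamini-Hochberg over the whole table, and genes under 0.05 were called. The SE is the fold change divided by the root of F, and 95% intervals use the fit's degrees of freedom. DESeq2 1.42.0 and limma-voom (3.58.1) were alternatives, in R 4.3.3. Scripts were tested on simulated data. Levels per kb use exons of coding transcripts in GENCODE M21.

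Same-numbered WT and KO columns deviated together weakly, with correlations of 0.108 to 0.135 across genes. Other pairs ranged from -0.156 to 0.0446, the negative ones reaching as large a size. The column number was therefore also fitted as a block. That pairing comes from the data and not from the labels. The members, lists and tests were chosen with earlier results of these data known. Values per library are given for members with an unadjusted p under 0.05 or groups that do not overlap, for the 2 members of each role with the highest CPM and for members of the ratios, and, of the further list, for the 6 genes with the smallest p and the 2 with the highest CPM.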

Additional observations from a re-analysis of the deposited data

How the results depend on the processing

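The count of 0 members called, and of 0 in the further pathway list, held in all 16 alternative settings, in which the lowest adjusted p of a member was 0.101 (DESeq2, Aldoa). Counts over the whole table did not hold: 2 genes became 272 with no low-count filter, 62 with DESeq2, 1 with limma-voom, 1 without robust estimation, 0 with the acinar covariate, 30 with the replicate block, and 0 to 114 when single libraries were left out (1 without WT library 1, 24 without KO library 3, 0 without KO library 1 or 2 and the highest without WT library 3). Members with an unadjusted p under 0.05 became 6 with no filter (15.4% of the members against 9.3% of all genes). They became 6 with the replicate block (15.4% against 14.6%). On leaving out a library they became 1 to 7 (2.56% to 17.9% of the members, where 5.55% to 14.5% of all genes passed). In the further list 7 became 4 with DESeq2, 1 against WT library 3 alone, 0 with the acinar covariate and 1 to 7 on leaving out a library. The median log2 fold change of the members was -0.00035 with the acinar covariate and 0.013 to 0.038 on leaving out a library, lowest without KO library 3. The replicate block changed no call among the members.

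No member was called in any setting, so every change of sign was necessarily in an uncalled value. Against WT library 3 alone the log2 fold changes that turned were Slc2a2 (-0.072), Pfkl (-0.038), Pfkfb3 (0.028), Pgk1 (0.18), Pgam1 (-0.058), Idh2 (-0.0098) and Ogdh (0.0017). With the acinar covariate they were Slc2a2 (-0.13), Pfkl (-0.081), Pfkfb3 (0.070), Pgk1 (0.22), Pgam1 (-0.069), Eno1 (-0.15), Pklr (0.0046), Pcx (-0.00035), Idh2 (-0.033) and Mdh1 (-0.020). With no low-count filter Pfkm (0.0011) and Pklr (0.00086) turned. Fh1 turned with DESeq2's size factors (-0.0012), no scaling factor (-0.0011) and the stricter filter (-0.00043). On leaving out single libraries, log2 fold changes crossed 0 for Pfkm (-0.019 to 0.0076), Pfkfb3 (-0.091 to 0.054), Pklr (-0.023 to 0.017), Pdk1 (-0.13 to 0.0094), Pdk2 (-0.070 to 0.044), Pdk3 (-0.087 to 0.042), Pdk4 (-0.097 to 0.048), Cs (-0.014 to 0.027), Ogdh (-0.033 to 0.0034), Suclg2 (-0.11 to 0.0074), Fh1 (-0.012 to 0.019), Idh1 (-0.092 to 0.0033), Mdh1 (-0.050 to 0.060) and Glud1 (-0.092 to 0.013). The log2 differences of the ratios crossed 0 for Slc2a1 to Slc2a2 (-0.13 to 0.19), G6pc2 to G6pc3 (-0.081 to 0.091) and Eno2 to Eno1 (-0.11 to 0.083). The cause of these shifts was not tested. With 3 libraries a group, exact tests of a ratio cannot go below p = 0.1.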

Other observations

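From the lowest to the highest of the 6 libraries, Slc2a2 varied by 1.44-fold, Slc2a1 by 1.42-fold, Pgk1 by 1.36-fold and Gpd2 by 1.29-fold, the widest 4 of the 39 members, whose median was 1.16-fold. The lowest WT library was library 2 for Slc2a2 and Gpd2, library 1 for Slc2a1 and library 3 for Pgk1. Fh1 and Pfkm varied least, each by 1.04-fold.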
